A study of Mus musculus with 56 samples.

Results

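The kinase genes Abl1, Abl2, Pdgfra, Pdgfrb, Kit, Csf1r, Ddr1 and Ddr2 were followed in the liver of 56 mice. They encode the mouse counterparts of the kinases that imatinib and related drugs are known to block: the cytoplasmic ABL kinases, receptors for growth factors of the PDGF, stem cell factor and colony-stimulating factor 1 families, and both discoidin domain receptors. The genes were chosen by name, not by their counts, and are 8 of the 45513 genes counted. All 8 had reads in all 56 mice and all 8 passed the filter on low counts, which left 14314 genes to test.

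The mice were female APOE*3Leiden.CETP animals, which carry human lipoprotein transgenes and serve as a model of dyslipidemia and atherosclerosis, and were 9 to 14 weeks old when they entered the study. Every group ate a Western-type diet with 15% cacao butter and 0.15% cholesterol, and treatment, which lasted 16 weeks, began after a run-in on the diet, so that the livers came from older mice. Controls received vehicle (5% carboxymethyl cellulose) by gavage. The drug groups received imatinib at 150 mg/kg at 2 gavages per day, or at 1 gavage per day nilotinib (10 or 30 mg/kg) or ponatinib (3 or 10 mg/kg), and all mice except the imatinib group had a further vehicle gavage. A reference group received vehicle and L-NAME, an inhibitor of nitric oxide synthases, at 0.12 to 0.20% in the drinking water. Each of the 7 groups held 8 mice. Whole liver poly(A) RNA was sequenced, so the values describe mRNA in a mixture of cells. Kinase activity, which the drugs act on, was not measured in these libraries, and in whole tissue fewer cells of a type and less RNA per cell cannot be told apart.

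Imatinib, nilotinib and ponatinib bind the ATP site of BCR-ABL1, the fusion kinase of chronic myeloid leukemia, and nilotinib was developed from imatinib. In the liver the targets sit in different cells. CSF1R keeps macrophages, among them the resident Kupffer cells, alive; the PDGF receptors and DDR2 are known from stellate cells and fibroblasts; KIT is best known from blood stem cells, mast cells and some endothelium; DDR1 is mainly an epithelial receptor; and the ABL kinases are present in most cells.

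The libraries held between 5342379 and 97473341 reads in genes (median 7.57e+06). The deepest was L-NAME mouse 2 and the next deepest held 17996732 reads. Reads outside annotated genes made up 7.97% ± 0.42 (mean ± SD, n = 8) in control and between 8.53% and 11.0% on average in the other groups. The highest control mouse, at 8.67%, lay below every mouse on nilotinib 10 mg/kg (lowest 9.14%), nilotinib 30 mg/kg (9.41%), ponatinib 10 mg/kg (8.89%) and L-NAME (8.81%). A fit with this share as a covariate therefore cannot tell share and treatment apart in those groups. Imatinib (lowest 8.16%) and ponatinib 3 mg/kg (7.78%) overlapped with control. The level of a gene is given below as CPM, the counts per unit of library size after trimmed-mean scaling. Ddr1 rested on a median of 46.5 reads per mouse (lowest 6) and Csf1r on a median of 771.

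Among the 8 genes Kit was the only one called by edgeR in the fit of all 56 mice, and Abl2 and Pdgfra are shown with it: the deviations of Abl2 went with those of Kit from mouse to mouse, and Pdgfra is the neighbor of Kit on chromosome 5, 377 kb upstream on the same strand. The sequences are the 250 bases before the annotated start of each gene (RefSeq, GRCm38.p6, 5′ to 3′), and capitals mark GGGCGG or its reverse complement, the GC box that Sp1-family factors bind.
Kit, chr5:75574737-75574986, plus strand: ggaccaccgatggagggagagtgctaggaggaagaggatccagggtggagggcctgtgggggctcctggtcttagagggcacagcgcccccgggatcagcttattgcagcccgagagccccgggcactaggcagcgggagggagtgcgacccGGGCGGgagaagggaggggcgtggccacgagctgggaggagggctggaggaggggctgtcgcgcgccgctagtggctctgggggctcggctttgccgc
Abl2, chr1:156558537-156558786, plus strand: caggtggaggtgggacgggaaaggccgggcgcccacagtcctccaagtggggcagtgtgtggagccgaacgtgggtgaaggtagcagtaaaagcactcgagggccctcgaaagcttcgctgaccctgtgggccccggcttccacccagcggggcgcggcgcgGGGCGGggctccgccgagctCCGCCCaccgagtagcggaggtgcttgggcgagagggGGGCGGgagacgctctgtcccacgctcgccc
Pdgfra, chr5:75152001-75152250, plus strand: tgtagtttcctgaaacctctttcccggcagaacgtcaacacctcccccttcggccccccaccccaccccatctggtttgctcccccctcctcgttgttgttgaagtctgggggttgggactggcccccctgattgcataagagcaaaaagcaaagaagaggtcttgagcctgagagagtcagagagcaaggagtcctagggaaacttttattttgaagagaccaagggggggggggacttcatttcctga
The Kit window held 1 GC box, the Abl2 window 3 and the Pdgfra window 0, whereas 32.7% of the 32851 RefSeq windows of this length held at least 1. None of the 3 windows held TATAAA on either strand, which 12.4% of all windows did, and none held CCAAT (33.8% of all). G and C made up 70.8% of the Kit window, 71.6% of the Abl2 window and 54.4% of the Pdgfra window, against a median of 52.4% over all windows. A match of letters is a description and not a measured binding site.

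In control liver the 8 genes spanned a wide range of levels once divided by exon length. Csf1r stood highest at 20.1 ± 5.39 CPM per kb (mean ± SD, n = 8), followed by Pdgfrb at 4.81 ± 2.07 and Abl1 at 4.18 ± 0.69. The other 5 genes lay close together: Pdgfra at 1.22 ± 0.33, Ddr1 at 1.17 ± 0.66, Ddr2 at 0.95 ± 0.29, Abl2 at 0.93 ± 0.17 and Kit at 0.88 ± 0.32 CPM per kb. Only the steps from Csf1r to Pdgfrb and from Abl1 to Pdgfra were free of overlap between control mice, and both held in 56 of 56 mice. The other 5 neighbors in this order overlapped, for example Pdgfrb exceeded Abl1 in only 3 of 8 control mice and 27 of 56 mice in all.

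**Figure D1:**
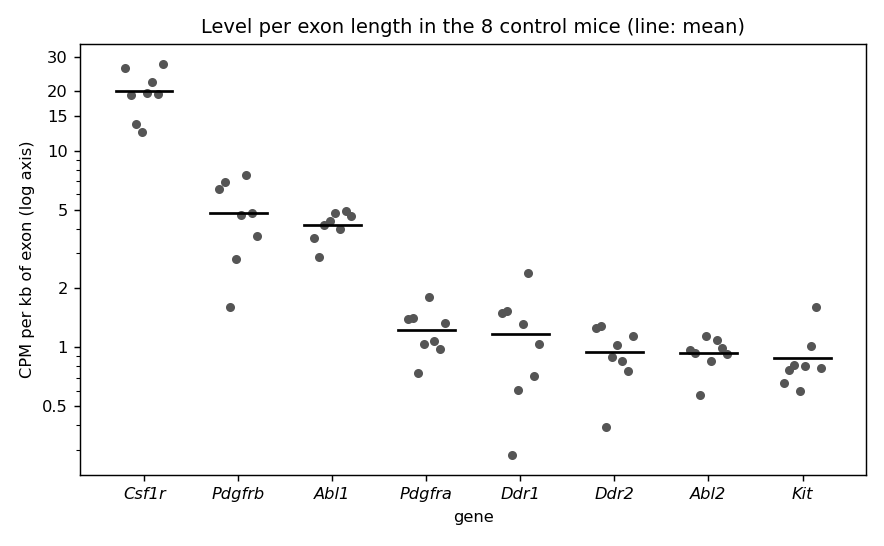
Level of each kinase gene in the 8 control mice, in CPM per kb of annotated exon on a log axis, with 1 point per mouse and the mean as a line. Csf1r stood above all other genes (mean 20.1), Pdgfrb and Abl1 followed (4.81 and 4.18), and the 5 remaining genes overlapped near 1 CPM per kb.

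As compared to control, none of the 8 genes was called in any of the 6 treatment groups. The test was the quasi-likelihood test of edgeR, with a Benjamini-Hochberg adjusted p below 0.05 over 14314 genes as the call. With imatinib 0 of 8 were called against a background of 10.2% of all genes tested, and with L-NAME 0 of 8 against 11.7%. The nilotinib groups had 0 of 8 against 1.47% (lower dose) and 5.71% (higher dose). The ponatinib groups had 0 of 8 against 0.00699% (lower dose) and 12.8% (higher dose). At the unadjusted cut-off of 0.01 that the study used, 3 of the 48 combinations passed, against backgrounds of 12.8% (imatinib), 5.88% and 9.33% (nilotinib), 3.05% and 15% (ponatinib) and 13.8% (L-NAME). The same 3 were the only ones with an unadjusted p below 0.05: Pdgfrb and Csf1r with imatinib and Pdgfrb with ponatinib 3 mg/kg. DESeq2 called 2 of the 48, both with imatinib, where it called 12.8% of all genes tested. Limma voom with quality weights called 5: 3 with imatinib (23.2% of all genes), 1 with ponatinib 10 mg/kg (26.1%) and 1 with L-NAME (26.1%). The median log2 fold change over the 8 genes was -0.34 with imatinib, where that over all genes tested was -0.02. For nilotinib it was 0.17 at the lower dose and 0.03 at the higher dose, for ponatinib -0.12 and -0.23 in the same order, and for L-NAME -0.11, while the medians over all genes lay between -0.01 and 0.03. All 6 contrasts share the same control mice.

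Group means were closest for Abl1 and farthest apart for Kit and Ddr1. The ratio of the highest to the lowest group mean was 1.21 for Abl1, 1.38 for Ddr2, 1.4001 for Abl2, 1.61 for Pdgfrb, 1.67 for Pdgfra, 1.78 for Csf1r, 2.11 for Ddr1 and 2.15 for Kit. For all 8 genes, all 6 neighboring groups in the order of means overlapped and differed by less than the larger SD. A test of any difference among the 7 groups called Kit alone (edgeR F = 3.795, adjusted p = 0.0196), where 18.5% of all genes tested were called. Pdgfrb came next (F = 2.94, adjusted p = 0.0656), and Ddr2 had the lowest F (0.46, adjusted p = 0.927).

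**Figure D2:**
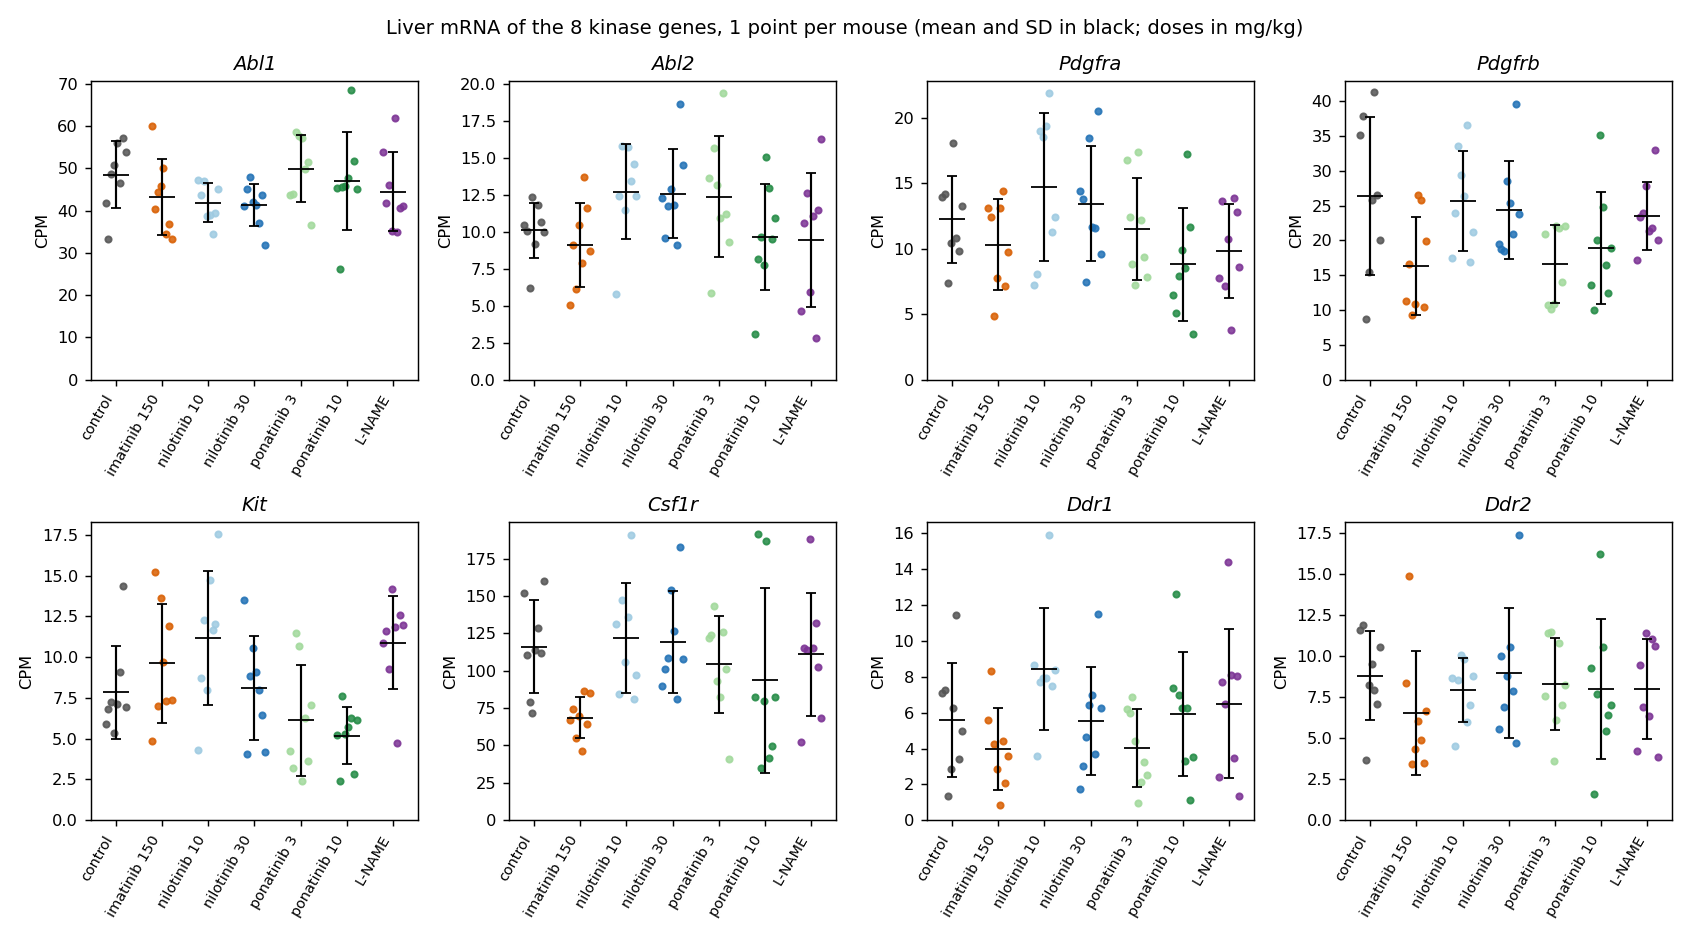
CPM of the 8 kinase genes by group, with 1 point per mouse and the mean and SD in black (n = 8 per group, linear axes from 0). Csf1r lay between 46.2 and 86.3 CPM in the imatinib mice against 71.7 to 160 in control, and Kit did not exceed 7.59 CPM in any mouse on ponatinib 10 mg/kg.

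The cytoplasmic kinase Abl1 varied least. Abl1 (ENSMUSG00000026842, chromosome 2, 31688376 to 31804227, plus strand) is the gene whose human counterpart is fused to BCR in leukemia, and its product signals to the actin skeleton. In control it ranged from 33.2 to 57.3 CPM (median 49.7), and group means ran from 41.3 ± 5.01 CPM with nilotinib 30 mg/kg to 49.9 ± 8.00 with ponatinib 3 mg/kg (SD, n = 8). Nilotinib gave the lowest means at both doses, while the lowest single value was in ponatinib 10 mg/kg (26.3 CPM). With nilotinib all 8 mice on the lower dose and all 8 on the higher dose lay below the control mean, with log2 fold changes of -0.21 (SE 0.14, adjusted p = 0.520) and -0.23 (SE 0.14, adjusted p = 0.380, edgeR). The 95% confidence interval at 30 mg/kg ran from -0.50 to 0.04, and the 8 mice overlapped with control, and the exact permutation test gave p = 0.04895 (two-sided, 0.361 after adjustment over 48 tests). With imatinib the log2 fold change was -0.17 (95% interval -0.44 to 0.10), and with ponatinib 10 mg/kg it was -0.05 (-0.32 to 0.22).

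Abl2 (ENSMUSG00000026596, chromosome 1, 156558786 to 156649568, plus strand), the related kinase also called Arg, was lower in level than Abl1 in CPM and per kb. It lay between 6.20 and 12.4 CPM in control (median 10.3), between 9.10 and 18.7 with nilotinib 30 mg/kg (median 12.1) and between 5.02 and 13.7 with imatinib (median 8.94). The nilotinib groups and ponatinib 3 mg/kg had the highest means (12.7 ± 3.23, 12.6 ± 3.00 and 12.4 ± 4.10 CPM) and imatinib the lowest (9.09 ± 2.84), and all groups overlapped. The log2 fold change was 0.33 with nilotinib 10 mg/kg (95% interval -0.18 to 0.85) and -0.15 with imatinib (-0.67 to 0.37).

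Genes that work with the ABL kinases were given by a list of 11, of which 10 were tested. With imatinib 2 of 10 were called lower, 2 with the lower and 1 with the higher dose of nilotinib, 0 with the lower and 2 with the higher dose of ponatinib, and 3 with L-NAME, and none was called higher. Over all genes tested the share called lower was 4.5% with imatinib, 0.957% and 3.4% with nilotinib, 0.00699% and 5.71% with ponatinib and 6.22% with L-NAME. The median log2 fold change of the list lay between -0.34 and -0.17 in the 6 groups. Crkl, an adaptor that ABL phosphorylates, was the member called most often: on the log2 scale it fell by 0.85 (imatinib), 0.83 (nilotinib, lower dose), 0.95 (nilotinib, higher dose), 0.88 (ponatinib, higher dose) and 0.96 (L-NAME) (edgeR adjusted p = 0.00638, 0.0337, 0.00432, 0.00372 and 0.00164). Its level was 19.7 to 36.2 CPM in control (median 26.8) and 10.5 to 21.3 with L-NAME (median 14.4), a group that received no kinase inhibitor. The 5 groups in which Crkl was called had mean shares of reads outside genes of 9.75% to 11.0%, and ponatinib 3 mg/kg, where it was not, 8.53%, against 7.97% in control. With that share as a covariate Crkl was called with imatinib alone (log2 fold change -0.76, adjusted p = 0.041), and its fold change was -0.83 to -0.74 in the other 4 groups (adjusted p = 0.0599 to 0.163). In those 4 groups share and treatment cannot be told apart, and the cause of the lower Crkl was not tested in any group. Bcr, the partner of ABL1 in the leukemia fusion, fell by 0.70 with nilotinib 10 mg/kg and 0.56 with L-NAME (adjusted p = 0.00673 and 0.00488). Wasf2, which drives branching of actin, fell by 0.52 with imatinib and 0.59 with ponatinib 10 mg/kg (adjusted p = 0.0208 and 0.00674), and Sos1, a Ras activator, fell by 0.57 with L-NAME (adjusted p = 0.00795). Of these calls only that of Bcr with nilotinib 10 mg/kg was kept with the covariate (adjusted p = 0.0337).

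Kit (ENSMUSG00000005672, chromosome 5, 75574916 to 75656722, plus strand; promoter above) encodes the receptor for stem cell factor. Its level lay between 5.36 and 14.4 CPM in control (median 7.04), 4.88 and 15.2 with imatinib (median 8.53), 4.32 and 17.6 with nilotinib 10 mg/kg (median 11.8) and 4.08 and 13.5 with nilotinib 30 mg/kg (median 8.44). With ponatinib it lay between 2.43 and 11.5 CPM at 3 mg/kg (median 5.24) and 2.41 and 7.59 at 10 mg/kg (median 5.52), and with L-NAME between 4.76 and 14.2 (median 11.7). The ponatinib groups thus held the lowest means and nilotinib 10 mg/kg the highest, and all groups overlapped. All 8 mice on ponatinib 10 mg/kg lay below the control mean and 4 of them below every control mouse, but the difference was not called (log2 fold change -0.59, SE 0.30, edgeR adjusted p = 0.198; exact permutation p = 0.0202, two-sided, 0.361 after adjustment over 48 tests).

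At 10 mg/kg, the higher dose of ponatinib and the lower dose of nilotinib, the drugs differed in Kit. The dose in mg/kg was the same, but plasma exposure was not matched between these groups. The mean was 5.19 ± 1.75 CPM with ponatinib and 11.2 ± 4.12 with nilotinib (SD, n = 8). Kit was lower with ponatinib than with nilotinib by 1.10 on the log2 scale (SE 0.30, 95% interval -1.70 to -0.51, edgeR adjusted p = 0.0322). It was the only one of the 8 genes called in this contrast, where 1.94% of all genes tested were called, 0.943% lower; at an unadjusted p below 0.01, 2 of 8 passed against 6.61% of all genes. All 8 ponatinib mice lay below the nilotinib mean and 7 of 8 nilotinib mice lay above every ponatinib mouse, while 1 nilotinib mouse, at 4.32 CPM, lay within the ponatinib range. The exact permutation test gave p = 0.00249 (two-sided), or 0.0597 after adjustment over 48 tests between drugs and doses. The edgeR call was lost without the filter on low counts (adjusted p = 0.0528) and when only these 2 groups were fitted (0.122). As compared to control, the log2 fold change of Kit was 0.51 with nilotinib 10 mg/kg (edgeR adjusted p = 0.454) and -0.59 with ponatinib 10 mg/kg (0.198). Neither was called. The 2 groups held the highest and lowest of the 7 group means, and the edgeR adjustment covered the genes of this contrast only.

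In that contrast the other 7 genes were not called. Pdgfra came nearest (log2 fold change -0.75, 95% interval -1.29 to -0.21, edgeR adjusted p = 0.127), and for Pdgfrb, Abl2, Csf1r and Ddr1 the intervals included 0. For Abl1 the interval was -0.10 to 0.44 and for Ddr2 -0.61 to 0.64. Kit was also lower with ponatinib 10 mg/kg than with imatinib 150 mg/kg (log2 fold change -0.89, SE 0.30, adjusted p = 0.169) and than with nilotinib 30 mg/kg (-0.64, SE 0.30, adjusted p = 0.326), drugs given at other doses, and neither was called. With 0 of 8 genes called, these contrasts had backgrounds of 0.957% and 1.65% (3.95% and 5.49% at an unadjusted p below 0.01). At an unadjusted p below 0.05, edgeR gave 1 of 8 for ponatinib minus imatinib and 2 of 8 for ponatinib minus nilotinib 30 mg/kg.

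Dose made no detected difference. Between ponatinib 10 and 3 mg/kg 0 of 8 genes were called (1.38% of all genes tested, 5.71% at an unadjusted p below 0.01), and between nilotinib 30 and 10 mg/kg 0 of 8 (0% of all, 1.25% unadjusted), with 0 of 8 at an unadjusted p below 0.05 in either (edgeR). DESeq2 and limma voom also called 0 of 8 in either, against 3.01% and 6.95% of all genes between the ponatinib doses. Between the nilotinib doses they called 0.014% and 0% of all genes. For Kit the log2 fold change between doses was -0.23 for ponatinib (95% interval -0.83 to 0.37) and -0.46 for nilotinib (-1.05 to 0.12).

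**Figure D3:**
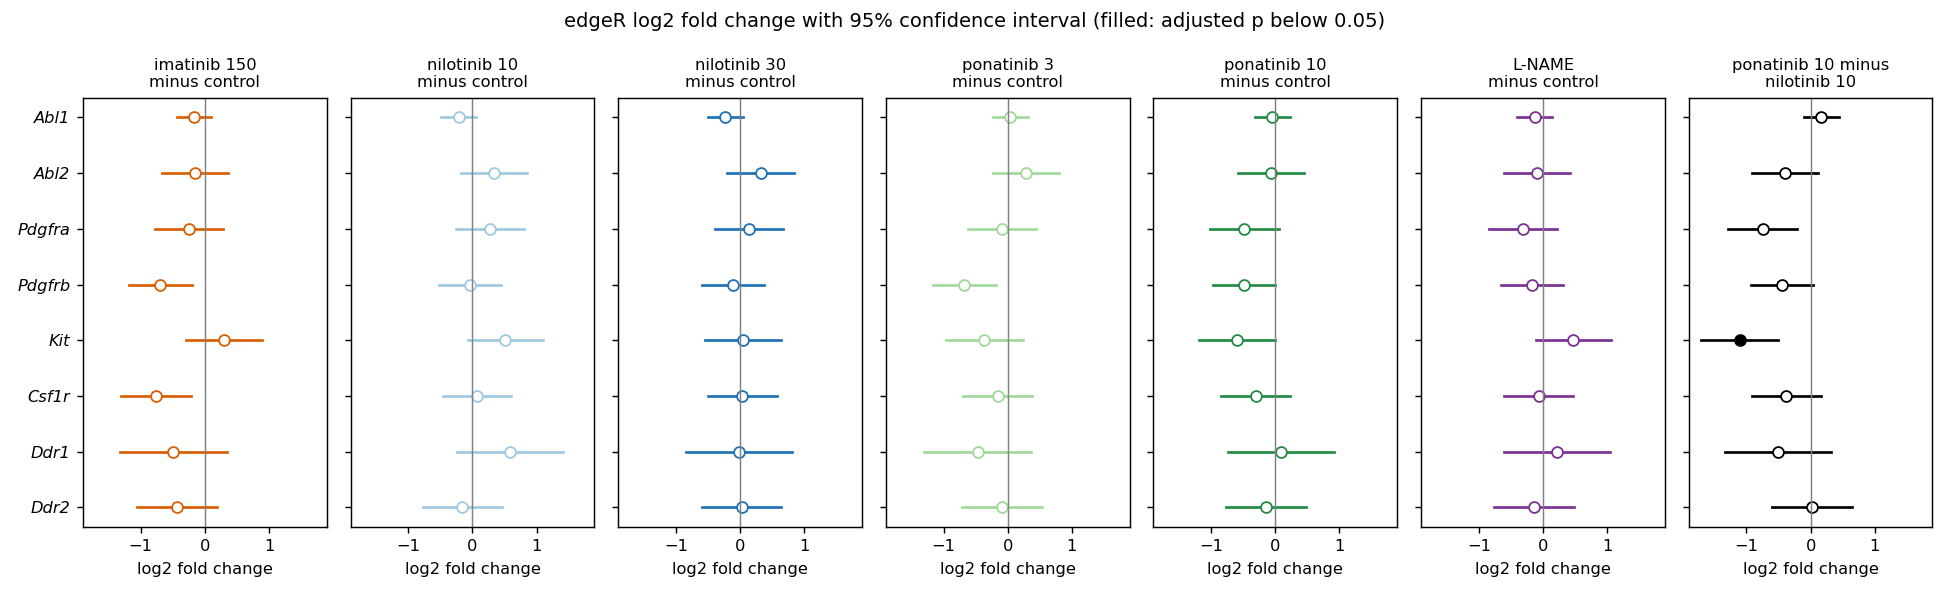
Log2 fold change of each kinase gene with its 95% confidence interval (edgeR, n = 8 mice per group), for each treatment against control and for ponatinib against nilotinib at 10 mg/kg. Filled points mark an adjusted p below 0.05; the single filled point is Kit in the last panel (-1.10).

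Pdgfra (ENSMUSG00000029231, chromosome 5, 75152292 to 75198215, plus strand; promoter above) encodes the PDGF receptor of mesenchymal cells. Its level lay between 7.41 and 18.1 CPM in control (median 12.0), 7.202 and 21.9 with nilotinib 10 mg/kg (median 15.5) and 3.504 and 17.2 with ponatinib 10 mg/kg (median 8.23). The lowest group mean was that of ponatinib 10 mg/kg (8.79 ± 4.29 CPM) and the highest that of nilotinib 10 mg/kg (14.7 ± 5.65), the same groups that lay at the ends for Kit. As compared to control the log2 fold change with ponatinib 10 mg/kg was -0.48 (95% interval -1.02 to 0.05, adjusted p = 0.257, edgeR).

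Pdgfrb (ENSMUSG00000024620, chromosome 18, 61045150 to 61085061, plus strand) encodes the PDGF receptor of pericytes and stellate cells. It lay between 8.75 and 41.3 CPM in control (median 26.1), so that 1 control mouse stood below every treated mouse. It lay between 9.25 and 26.5 with imatinib (median 13.9), 10.2 and 22.1 with ponatinib 3 mg/kg (median 17.5) and 10.0 and 35.1 with ponatinib 10 mg/kg (median 17.6). With nilotinib it lay between 17.0 and 36.5 CPM at 10 mg/kg (median 25.1) and 18.4 and 39.5 at 30 mg/kg (median 22.3), and with L-NAME between 17.2 and 32.9 (median 22.5). Imatinib and both ponatinib groups thus had the lower medians, and all overlapped with control. The log2 fold change was -0.69 with imatinib (SE 0.24, adjusted p = 0.056), -0.67 with ponatinib 3 mg/kg (SE 0.24, adjusted p = 0.312) and -0.48 with ponatinib 10 mg/kg (SE 0.24, adjusted p = 0.198, all edgeR). By the exact permutation test the mean difference gave p = 0.057, 0.0472 and 0.15 (two-sided), and none held after adjustment over 48 tests.

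Csf1r (ENSMUSG00000024621, chromosome 18, 61100598 to 61132149, plus strand, 15.5 kb downstream of Pdgfrb) encodes the receptor that binds CSF1 and IL-34. Of its exon bases 15.1% also lie in exons of Hmgxb3 on the other strand, and the strand setting of the counting is not given in the sources used here. Csf1r lay between 71.7 and 160 CPM in control (median 113) and between 46.2 and 86.3 with imatinib (median 68.3). All 8 imatinib mice were below the control mean and 5 were below every control mouse, yet the ranges overlapped. The mean was 40.9% lower with imatinib (68.5 ± 13.7 against 116 ± 31.1 CPM), with a log2 fold change of -0.76 (SE 0.27, edgeR adjusted p = 0.0604). The exact permutation test gave p = 0.00218 (two-sided, adjusted p = 0.104 over 48 tests), the lowest of the 48 tests against control.

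The call for Csf1r with imatinib depended on the fit. The adjusted p was 0.0345 with DESeq2, 0.00852 with limma voom and 0.00245 when only imatinib and control mice were fitted, but 0.236 (log2 fold change -0.62) with the share of reads outside genes as a covariate. That share was 10.0% on average with imatinib against 7.97% in control, and its part in the result was not tested beyond that fit. In the other groups the range of Csf1r was 81.0 to 191 CPM with nilotinib 10 mg/kg, 81.3 to 183 with nilotinib 30 mg/kg, 41.0 to 143 with ponatinib 3 mg/kg and 52.4 to 188 with L-NAME. With ponatinib 10 mg/kg it was the most variable, from 35.3 to 192 CPM (median 81.1, coefficient of variation 66.0%), with 3 mice below every control mouse and 2 above.

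Imatinib and nilotinib 30 mg/kg, which differ in dose, were set side by side for Csf1r. All 8 imatinib mice lay below the nilotinib mean (119 ± 34.3 CPM) and 6 below every nilotinib mouse. The log2 fold change was -0.80 (SE 0.27, edgeR adjusted p = 0.0894), and the exact permutation test gave p = 0.000622 (two-sided, adjusted p = 0.0298), the only one of 48 tests between drugs and doses below 0.05 after adjustment. By edgeR 0 of 8 genes were called in this contrast against a background of 3.51% (7.39% at an unadjusted p below 0.01), with 2 of 8 at an unadjusted p below 0.05. DESeq2 called 1 of 8 and limma voom 2 of 8, against 5.13% and 7.51% of all genes tested.

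Kupffer cell markers, of which all 10 were detected in all mice, were lower with imatinib, as Csf1r was, but the group values of both did not run in step elsewhere. The summed level of 10 Kupffer cell markers was 919 to 1711 CPM in control (median 1294) and 584 to 1151 with imatinib (median 769; exact permutation p = 0.00124, two-sided, unadjusted). It was higher than control with nilotinib 10 and 30 mg/kg (medians 1560 and 1637, exact permutation p = 0.0465 and 0.0334), where the log2 fold change of Csf1r was 0.07 and 0.04. With ponatinib 10 mg/kg it ran from 532 to 2660 CPM (median 1188). By edgeR 2 of 10 fell with imatinib, where 4.5% of all genes fell and 8 of the 10 had a negative fold change. These were Adgre1 (log2 fold change -1.35) and Cd5l (-1.23), and of 5 monocyte markers 1 fell, Lyz2 (-1.43; edgeR adjusted p = 0.0205, 0.000788 and 0.00128). Against control 1 of 10 Kupffer markers was called with nilotinib 30 mg/kg, 3 with ponatinib 10 mg/kg and 1 with L-NAME. Over all genes tested 5.71%, 12.8% and 11.7% were called in these groups. Clec4f rose with nilotinib 30 mg/kg (0.64), ponatinib 10 mg/kg (0.61) and L-NAME (0.69), and Marco with ponatinib 10 mg/kg (2.32), where Cd68 fell by 0.81. These 6 genes were named after their values were seen. With the share of reads outside genes as a covariate, Cd5l and Lyz2 stayed below 0.05 with imatinib (adjusted p = 0.00928 and 0.0148) and Adgre1 did not (0.126). In that fit 0 of 10 Kupffer markers were called with nilotinib 30 mg/kg, ponatinib 10 mg/kg or L-NAME. The monocyte sum was 139 to 419 CPM in control and 78.2 to 172 with imatinib. The part of cell numbers in the level of Csf1r was not tested.

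Across the 56 mice, after the group means were subtracted on the log2 scale, Csf1r followed the Kupffer marker sum. Pearson's r was 0.89 and Spearman's rho 0.83 (permutation p = 1e-05 for both, the smallest that 100000 resamples can give; adjusted p = 0.00024 and 0.00016 over 48 relations), r was 0.88 without the 2 farthest mice, and it was between 0.70 and 0.95 within each of the 7 groups. With the sum of 8 hepatocyte markers r was -0.61 (rho -0.57, permutation p = 1e-05 and 3e-05, adjusted p = 0.00024 and 0.00036). The sums are parts of the same libraries as the genes. The 3 genes most like Csf1r among 14313 were Cd5l (r = 0.87), Lyz2 (0.85) and C1qb (0.84), all of them on the Kupffer or monocyte lists.

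Pdgfrb followed the stellate cell markers. With the sum of 9 stellate markers r was 0.58 and rho 0.60 (permutation p = 2e-05 and 1e-05, adjusted p = 0.00032 and 0.00016), r was 0.58 without the 2 farthest mice, and it was positive in 7 of 7 groups (0.30 to 0.89). That sum was 378 to 660 CPM in control (median 521), 337 to 502 with imatinib (median 431), 317 to 509 with ponatinib 3 mg/kg (median 440) and 160 to 545 with ponatinib 10 mg/kg (median 476). With L-NAME it was 385 to 614 (median 446), a group in which Pdgfrb had a median near that of control, and with nilotinib the medians were 551 and 572 CPM. The part of cell numbers in the level of Pdgfrb was not tested. By edgeR 0 of 9 stellate markers were called against control in any group, with 7 of 54 at an unadjusted p below 0.05. The genes most like Pdgfrb were Col4a2 (r = 0.76), Bgn (0.73) and Col4a1 (0.71). Pdgfrb also went with the sums of activated stellate (r = 0.52, rho = 0.54) and sinusoidal endothelial markers (r = 0.45, rho = 0.36), which passed by permutation after adjustment. With the cholangiocyte sum r passed (0.33, adjusted permutation p = 0.0497) and rho did not (0.128). Pdgfra went with the stellate sum as well (r = 0.43, rho = 0.49, adjusted permutation p = 0.0162 and 0.00168).

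**Figure D4:**
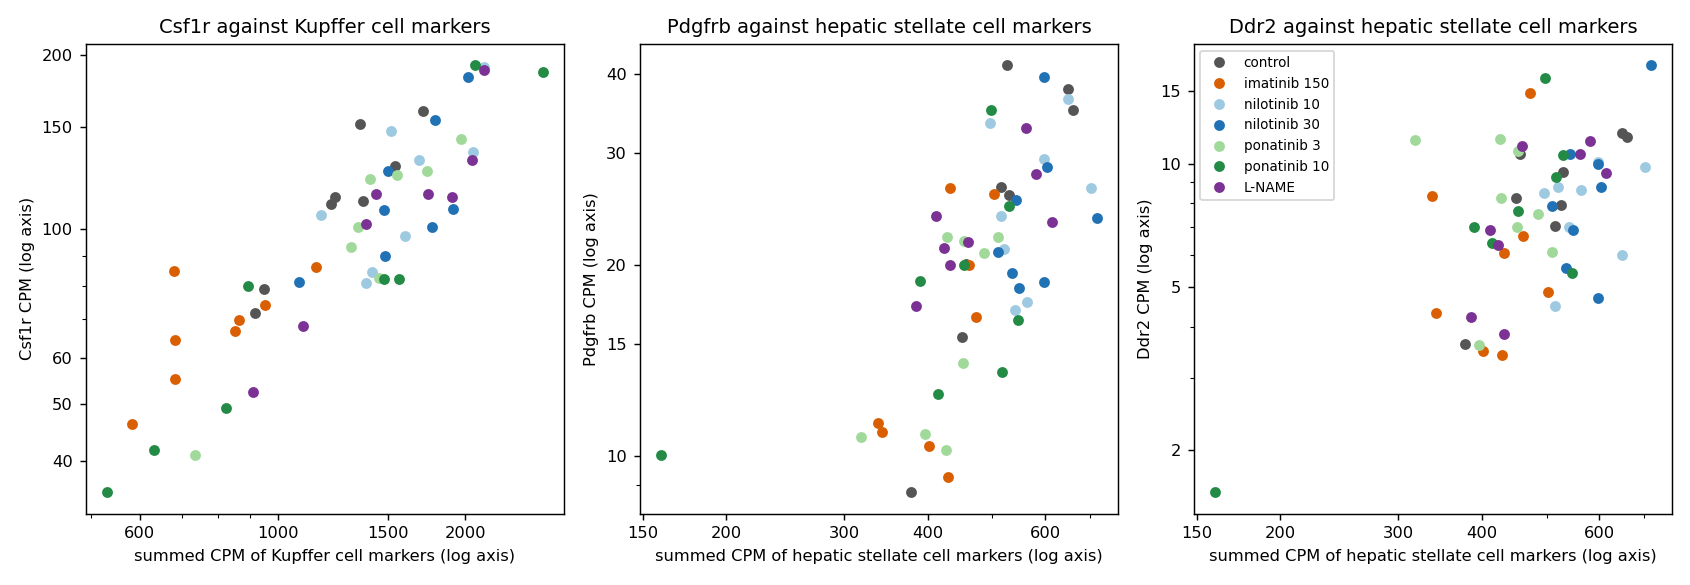
CPM of Csf1r, Pdgfrb and Ddr2 against the summed CPM of marker genes of Kupffer or stellate cells, with 1 point per mouse colored by group and log axes. Csf1r and the Kupffer sum rose together within all 7 groups; the imatinib mice lay between 583.5 and 1151 CPM of markers and overlapped with control, and the lowest mouse on both axes received ponatinib 10 mg/kg (532 and 35.3 CPM).

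Ddr1 (ENSMUSG00000003534, chromosome 17, 35681567 to 35704621, minus strand) encodes the collagen receptor of epithelia and was the least evenly measured of the 8. It lay between 1.35 and 11.4 CPM in control (median 5.61), 0.844 and 8.35 with imatinib (median 3.92) and 3.60 and 15.9 with nilotinib 10 mg/kg (median 7.94). The coefficient of variation was 40.3% to 64.1% within groups, and the intervals of its log2 fold changes were the widest, for example -1.33 to 0.35 with imatinib and -0.24 to 1.42 with nilotinib 10 mg/kg. From mouse to mouse Ddr1 followed the cholangiocyte marker sum (r = 0.45, rho = 0.46, permutation p = 0.00068 and 0.00094, adjusted p = 0.00466 and 0.00645; r = 0.39 without the 2 farthest mice) and ran against the hepatocyte sum (r = -0.505, rho = -0.53, permutation p = 0.00026 and 7e-05, adjusted p = 0.00232 and 0.000672; negative in all 7 groups). The cholangiocyte sum was 71.1 to 218 CPM in control, with Cftr at 0 in 34 of 56 mice. The genes most like Ddr1 were Ly6d (r = 0.65), Tgm2 (0.63) and Il10rb (0.63).

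Ddr2 (ENSMUSG00000026674, chromosome 1, 169972307 to 170110762, minus strand) encodes the receptor for fibrillar collagen on mesenchymal cells. It lay between 3.64 and 11.9 CPM in control (median 8.88), 3.42 and 14.8 with imatinib (median 5.45) and 1.58 and 16.2 with ponatinib 10 mg/kg (median 7.34), and all groups overlapped. Its log2 fold change was -0.44 with imatinib (95% interval -1.06 to 0.18, edgeR adjusted p = 0.431) and between -0.16 and 0.02 in the other 5 groups. Ddr2 went with the stellate marker sum (r = 0.59, rho = 0.435, permutation p = 0.00029 and 0.00165, adjusted p = 0.00232 and 0.0099; r = 0.49 without the 2 farthest mice), and the genes most like it were Reln (r = 0.59), Slk (0.58) and Pde3a (0.58).

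Genes of collagens, the ligands of the discoidin domain receptors, changed where the receptors were not called. All 5 collagen genes of the list were called lower with imatinib (median log2 fold change -2.35) and all 5 with ponatinib 10 mg/kg (-1.92). With L-NAME 1 of 5 was called lower (-0.99), and 0 of 5 were called with nilotinib 10 mg/kg (-0.47), nilotinib 30 mg/kg (-0.34) or ponatinib 3 mg/kg (-1.63). Of all genes tested 4.5% were called lower with imatinib, 5.71% with ponatinib 10 mg/kg and 6.22% with L-NAME. With the share of reads outside genes as a covariate 4 of 5 collagens were called lower with imatinib, 3 of 5 with ponatinib 10 mg/kg and 0 of 5 with L-NAME. Col1a1 was among those called with imatinib (-3.02, adjusted p = 0.00128) and ponatinib 10 mg/kg (-2.76, adjusted p = 0.0136). Col1a1, a chain of type I collagen, lay between 23.7 and 220 CPM in control (median 91.1), 7.05 and 19.2 with imatinib (median 11.8) and 6.50 and 26.1 with ponatinib 10 mg/kg (median 11.5). The control and imatinib mice did not overlap. The log2 fold change was -3.03 with imatinib (SE 0.55, edgeR adjusted p = 0.000249) and -2.78 with ponatinib 10 mg/kg (SE 0.54, adjusted p = 0.000377). Col1a2, the other type I chain, lay between 24.2 and 167 CPM in control and 12.1 and 21.4 with imatinib (log2 fold change -2.35, adjusted p = 8.27e-05). Col3a1, of type III collagen, fell by 2.60 and Col4a1, of basement membrane collagen, by 1.38 on the log2 scale with imatinib (adjusted p = 8.27e-05 and 0.00132).

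With ponatinib 3 mg/kg the collagens had medians near those of the higher dose without passing the test. Col1a1 lay between 8.20 and 77.9 CPM (median 12.7; log2 fold change -2.31, SE 0.53, edgeR adjusted p = 0.132) and Col1a2 between 10.6 and 54.6 (median 27.3; -1.68, adjusted p = 0.132). In that contrast 1 gene of 14314 was called. Marker sums differed from control in this group as well. The hepatocyte sum was higher (exact permutation p = 0.00559, two-sided, unadjusted), and the sums of stellate (0.048), sinusoidal endothelial (0.0393) and pericentral endothelial (0.0319) markers were lower; their part in the collagen and Pdgfrb values was not tested. The control mice were spread over a wide range for each chain, from 61.2 to 362 CPM for Col3a1. At 10 mg/kg of either drug, 2 of 5 collagens were called lower with ponatinib than with nilotinib, where 0.943% of all genes tested were. All 5 had a negative log2 fold change (median -1.45) and an unadjusted p below 0.05 (edgeR).

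**Figure D5:**
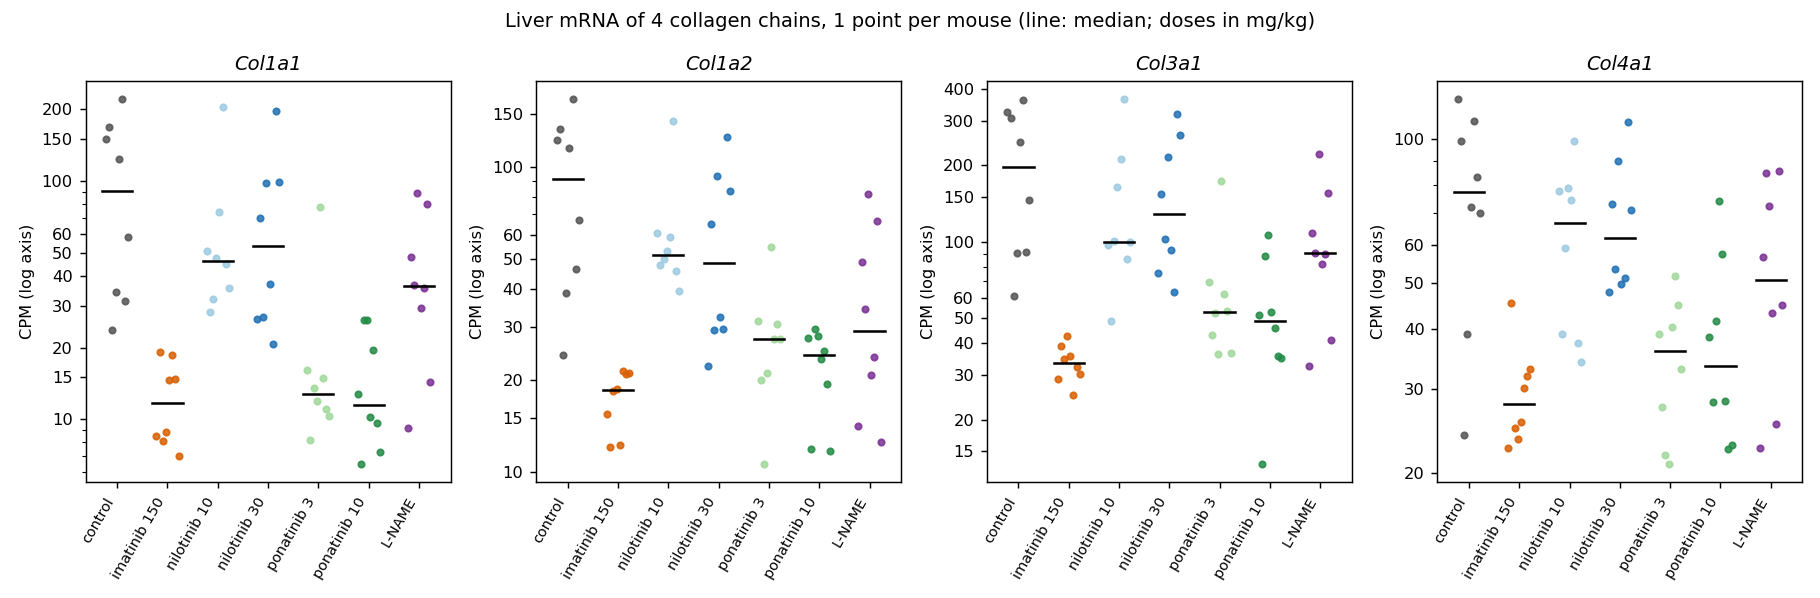
CPM of 4 collagen chains by group on log axes, with 1 point per mouse and the median as a line (n = 8 per group). The imatinib, ponatinib 3 mg/kg and ponatinib 10 mg/kg mice had Col1a1 medians of 11.8, 12.7 and 11.5 CPM against 91.1 in control.

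Growth factor ligands of the receptors were not called against control. The list held the PDGF chains, stem cell factor, Csf1 and Il34, and 0 of 7 passed in each of the 6 groups, with 3 of 42 at an unadjusted p below 0.05 (edgeR). Csf1, the ligand of CSF1R, lay between 16.1 and 41.0 CPM in control (median 26.6) and 2.04 and 22.2 with ponatinib 10 mg/kg (median 16.7), with a log2 fold change of -0.78 (SE 0.28, edgeR adjusted p = 0.0562). Pdgfa had a 95% interval of -1.81 to -0.19 in that group (adjusted p = 0.0935), Pdgfc -0.80 with ponatinib 3 mg/kg (adjusted p = 0.431) and Pdgfd -0.75 with ponatinib 10 mg/kg (adjusted p = 0.396). Between ponatinib and nilotinib at 10 mg/kg Csf1 was the 1 ligand of 7 called, and it was lower with ponatinib by 1.05 (SE 0.28, adjusted p = 0.0325).

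Downstream of the receptors, 14 genes that the ERK pathway is known to induce were examined, and against control 1 of 14 was called with ponatinib 10 mg/kg, below the 12.8% of all genes. Dusp6, a phosphatase that switches ERK off, fell by 0.66 with ponatinib 10 mg/kg (SE 0.22, edgeR adjusted p = 0.0327; 0.366 with the share of reads outside genes as a covariate). Dusp6 lay between 72.1 and 139 CPM in control (median 113) and between 42.2 and 124 with ponatinib 10 mg/kg (median 67.1). The median of the list in that group was -0.53, and it lay between -0.22 and 0.06 in the other 5 groups, where 0 of 14 were called. Cyclin D1 (Ccnd1) had a log2 fold change of -0.65 with ponatinib 10 mg/kg (adjusted p = 0.0814), Fos 1.37 with nilotinib 30 mg/kg (adjusted p = 0.144) and Etv4 2.28 with L-NAME (adjusted p = 0.178). Between imatinib and nilotinib 30 mg/kg 1 of 14 was called, Fos, which was lower with imatinib. Of 8 related kinases 1 was called against control, near the 10.2% of all genes called with imatinib: Lyn, a Src-family kinase of myeloid cells, which fell by 0.53 with imatinib (adjusted p = 0.0183; 0.133 with the covariate). Between imatinib and nilotinib 30 mg/kg 2 of 8 were called lower, Lyn and Fgr. Fgr, of the same family, had a log2 fold change of -1.11 with imatinib (edgeR adjusted p = 0.0952), and Src had -1.03 with ponatinib 3 mg/kg (adjusted p = 0.436).

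The 8 genes were compared with each other across the 56 mice after subtraction of group means, over 28 pairs. Pdgfra and Pdgfrb went together (r = 0.50, rho = 0.54, permutation p = 8e-05 and 5e-05, adjusted p = 0.00112 and 0.0007; r = 0.555 without the 2 farthest mice; positive in 7 of 7 groups). Csf1r and Ddr1 did so as well (r = 0.53, rho = 0.56, permutation p = 8e-05 and 4e-05, adjusted p = 0.00112 and 0.0007; r = 0.60 without the 2 farthest mice; positive in 7 of 7 groups). Abl2 and Kit had r = 0.40 and rho = 0.38 (permutation p = 0.00299 and 0.00511, adjusted p = 0.0248 and 0.0477), positive in 6 of 7 groups. For Pdgfrb with Ddr2 (r = 0.415, adjusted p = 0.0248) and Abl2 with Pdgfrb (r = 0.33, adjusted p = 0.0488) only r passed and rho did not (adjusted p = 0.146 and 0.198, permutation). The genomic neighbors did not stand out, with r = -0.07 for Pdgfra and Kit and 0.21 for Pdgfrb and Csf1r (permutation p = 0.61 and 0.149).

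Mast cells, a known site of KIT, left little trace in these livers. Of 6 mast cell markers only Hdc passed the filter, and Cpa3, Mcpt4, Tpsb2, Fcer1a and Ms4a2 were at 0 in between 48 and 55 of 56 mice. Kit ran against the cholangiocyte sum (r = -0.34, rho = -0.34, permutation p = 0.0108 and 0.0134, adjusted p = 0.0346 and 0.0446). There r was -0.38 without the 2 farthest mice and positive in 1 of 7 groups. With the sinusoidal endothelial sum, Kit had r = 0.32 (rho 0.20, permutation p = 0.0166 and 0.151, adjusted p = 0.0497 and 0.259) and r = 0.195 without the 2 farthest mice. That endothelial sum, of 8 markers, was 197 to 540 CPM in control (median 305), 364 to 443 with nilotinib 10 mg/kg (median 418), 158 to 319 with ponatinib 3 mg/kg (median 240) and 116 to 345 with ponatinib 10 mg/kg (median 276), and its part in the difference in Kit was not tested. Between ponatinib and nilotinib at 10 mg/kg 1 of 8 endothelial markers was called lower, where 0.943% of all genes tested were. All 8 had a negative log2 fold change, and 6 had an unadjusted p below 0.05 (edgeR). With the share of reads outside genes as a covariate 4 of 8 were called lower, where 1.3% of all genes were called in either direction. The genes most like Kit were Phc1 (r = 0.64), Cd276 (0.56) and Gm5970 (0.55), those most like Pdgfra were Tgfbi (0.63), Smoc2 (0.57) and Prdm4 (0.56), those most like Abl1 were Rnf24 (0.56), Hjurp (0.56) and Trdmt1 (0.54), and those most like Abl2 were Exph5 (0.63), Gm12354 (0.61) and Fam171a1 (0.57), each over 56 mice.

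Of the remaining lists, 1 of 8 activated stellate cell or fibroblast markers was called with imatinib, Lox, which crosslinks collagen (lower, edgeR adjusted p = 0.045). Lox had a mean of 1.26 CPM over all mice and was at 0 in 16 of 56. Of 5 lymphocyte markers 1 was called with imatinib, the pan-leukocyte gene Ptprc (-0.98, edgeR adjusted p = 0.0105). Both genes were named after their values were seen, and 4.5% of all genes tested were called lower with imatinib. With the share of reads outside genes as a covariate 0 of 8 and 1 of 5 were called. Markers of sinusoidal endothelium (0 of 8), pericentral endothelium (0 of 4) and cholangiocytes (0 of 6) were not called against control in any group, with 10 of 48, 4 of 24 and 0 of 36 at an unadjusted p below 0.05. Of 8 hepatocyte markers 4 were called with imatinib, 1 and 3 with nilotinib (lower and higher dose), 0 and 4 with ponatinib and 5 with L-NAME. Over all genes tested the shares called were 10.2%, 1.47%, 5.71%, 0.00699%, 12.8% and 11.7% in the same order. Directions were mixed, with between 2 and 5 of the 8 fold changes negative per group. All 8 were detected in all 56 mice.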

How the data were processed

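Liver poly(A) RNA of 56 mice was sequenced on an Illumina NextSeq. The authors aligned the reads to GRCm38 with TopHat2 2.0.14 and Bowtie2 2.1.0 and deposited raw read counts per Ensembl gene from HTSeq 0.6.1p1 (SAMtools 0.1.18), 1 table per mouse. Groups followed the labels, and mice were not paired. Gene names and exons came from GENCODE vM21.

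Counts were filtered (filterByExpr), scaled by TMM and fitted once over 56 mice and 7 groups with edgeR 4.0.16 (robust quasi-likelihood, R 4.3.3). A call was a Benjamini-Hochberg adjusted p below 0.05 over all 14314 genes; the study itself used an unadjusted cut-off of 0.01. Correlations used log2 CPM (prior count 2) and 100000 permutations, and exact tests the CPM (Python 3.11.15, scipy 1.17.1). The fits were tested on simulated data. Alternatives were DESeq2 1.42.0, limma 3.58.1 voom, other scaling, filter, samples and covariate. All 8 kinase genes were named, with the 3 most alike genes each and at most 4 genes per pathway list. The genes and lists were chosen with earlier results of these data known. Of the 45513 genes, 842 were not named by the annotation.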

Additional observations from a re-analysis of the deposited data

Results flagged for a closer look

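In each of the 56 combinations of a kinase gene and a group, the highest or lowest of the 8 mice was checked for a gap to the nearest other mouse above Dixon's 95% limit for 8 values (0.526 of the range). In 5 combinations a mouse stood apart, and chance gives about 1 in 20. Abl2 in nilotinib 10 mg/kg mouse 1, the shallowest library, was at 5.76 CPM with the next mouse at 11.5. Kit in control mouse 7 was at 14.4 CPM with the next at 9.06. Ddr1 in nilotinib 10 mg/kg mouse 6 was at 15.9 CPM with the next at 8.64. Ddr2 stood apart in imatinib mouse 2 (14.8 CPM, next 8.36) and in nilotinib 30 mg/kg mouse 8 (17.4 CPM, next 10.5).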

How the results depend on the processing

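Of 952 log2 fold changes of the 8 genes recomputed under an alternative, 936 stayed on their side of the threshold. In the main fit Kit between ponatinib and nilotinib at 10 mg/kg was the only one called, so this count mostly describes genes that stayed uncalled. Pearson's r of the 28 pairs was recomputed with RLE scaling, and no pair called before changed its sign. The p of the pairs was not recomputed, so whether they stayed on their side of the threshold was not tested. Counts of called genes changed as follows, with the share of all genes tested under the same setting in parentheses. With imatinib as compared to control the count went from 0 to 2 at the unadjusted cut-off of 0.01 (12.8%), 2 with DESeq2 (12.8%), 3 with limma voom (23.2%), and 1 with only the 2 groups fitted (13.5%). For ponatinib 3 mg/kg it became 1 at the unadjusted cut-off (3.05%), and for ponatinib 10 mg/kg and L-NAME 1 each with limma voom (26.1% in both). For ponatinib 10 mg/kg minus nilotinib 10 mg/kg the count of 1 became 2 at the unadjusted cut-off (6.61%). It became 0 without the filter on low counts (0.857%) or with only the 2 groups fitted (0.317%). Against nilotinib 30 mg/kg ponatinib 10 mg/kg gave 1 with limma voom (5.32%), and against imatinib 1 at the unadjusted cut-off (3.95%). Imatinib minus nilotinib 30 mg/kg gave 1 at the unadjusted cut-off (7.39%), 1 with DESeq2 (5.13%), 2 with limma voom (7.51%) and 1 with only the 2 groups fitted (4.6%). The unfiltered fit tested 24040 genes; the cause of the other changes was not tested.

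Kit between ponatinib and nilotinib at 10 mg/kg kept its adjusted p below 0.05 in 8 of 10 alternatives (0.00984 to 0.122), with log2 fold changes of -1.24 to -1.10. Leaving out L-NAME mouse 2, nilotinib 10 mg/kg mouse 1 or ponatinib 10 mg/kg mouse 3, chosen after seeing the data, gave an adjusted p of 0.0359, 0.0256 and 0.0365. Without ponatinib 10 mg/kg mouse 3 the imatinib count rose from 0 to 1 (Csf1r, adjusted p = 0.0454), where 9.98% of all genes tested were called. Kit, Ddr1 and Ddr2 had the fewest reads; depth and spread between mice were not separated. No paired analysis was possible because the labels give the mice no numbers shared between groups. Over all genes tested, the covariate for the share of reads outside genes lowered the count called from 1457 to 645 with imatinib, 210 to 15 and 818 to 103 with nilotinib, 1839 to 351 with ponatinib 10 mg/kg, 1675 to 254 with L-NAME and 197 to 0 between the ponatinib doses. Limma voom gave 3327, 1240, 2349, 3743, 3737 and 995 in the same order, and for ponatinib 3 mg/kg 571 (48 with DESeq2) instead of 1. Ponatinib minus nilotinib at 10 mg/kg had 278, then 518 with DESeq2 and 40 with only the 2 groups fitted. The pathway and marker lists were refitted with the covariate after seeing the data. No control mouse reached the shares outside genes seen with nilotinib, ponatinib 10 mg/kg or L-NAME. Calls lost with the covariate in those groups therefore cannot tell share and treatment apart.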
